A study of Drosophila melanogaster with 3 samples.

Results

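Binding of the CG7368 protein was mapped at the promoters of the proteasome subunit genes in whole prepupae of Drosophila melanogaster, animals at the onset of metamorphosis. The genes were chosen by symbol, as protein-coding genes of the Ensembl annotation whose name begins with Prosalpha, Prosbeta, Rpn or Rpt and a digit. The rule took 48 of 13986 protein-coding genes, of which 32 carry the plain subunit names and 16 are paralogs whose names end in T or R. The plots call these testis paralogs from their symbols alone, since the lists hold no expression data. All animals were of the transgenic strain CG7368-GFP, which stably expresses the CG7368 product with green fluorescent protein at its C-terminus, and males and females were pooled with the age given as unknown. Chromatin was precipitated with an antibody against the tag, and the single group held 3 biological replicates. No control library is analysed here, so gene classes and lists are compared with each other and with all protein-coding genes.

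The proteasome degrades proteins that have been marked with ubiquitin. Its barrel-shaped core is built of rings of alpha and beta subunits, with the proteolytic sites inside on beta subunits. A regulatory particle caps the core, with a base of Rpt ATPases and large Rpn proteins that unfold and feed substrates, and a lid of further Rpn proteins that holds the deubiquitinase Rpn11. In Drosophila many subunits have a duplicated gene, and many of the duplicates are known to be expressed in the male germ line.

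Sequences are shown for the 4 highest pooled promoter regions on 2L, 3L, 3R and X and for Prosbeta4R1, the sole paralog with a pooled region and the lowest of the 10 genes. They were read from the dm6 genome on the plus strand, which is the strand of each of these genes. Each is a stretch that overlaps no annotated exon. In Rpn5, Prosalpha4, Prosbeta2 and Prosbeta4R1 the 11 capitals are centred on the summit of the region in the pooled list. In Rpn3 the capitals mark the second copy of a tandem repeat.
Rpn3, chr2L:19051613-19051789: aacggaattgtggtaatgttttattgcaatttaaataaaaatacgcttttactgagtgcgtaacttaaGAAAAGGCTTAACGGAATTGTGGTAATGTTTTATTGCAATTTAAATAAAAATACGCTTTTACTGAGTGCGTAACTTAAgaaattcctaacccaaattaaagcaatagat
Rpn5, chr3R:5789129-5789328: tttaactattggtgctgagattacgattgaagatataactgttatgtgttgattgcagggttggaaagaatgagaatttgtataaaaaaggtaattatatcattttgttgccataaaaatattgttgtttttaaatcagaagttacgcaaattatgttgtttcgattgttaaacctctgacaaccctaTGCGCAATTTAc
Prosalpha4, chrX:16275918-16276115: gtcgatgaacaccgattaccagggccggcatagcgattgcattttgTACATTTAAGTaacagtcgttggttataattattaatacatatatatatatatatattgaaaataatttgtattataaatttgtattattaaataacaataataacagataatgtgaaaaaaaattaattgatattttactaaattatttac
Prosbeta2, chr3L:14999667-14999866: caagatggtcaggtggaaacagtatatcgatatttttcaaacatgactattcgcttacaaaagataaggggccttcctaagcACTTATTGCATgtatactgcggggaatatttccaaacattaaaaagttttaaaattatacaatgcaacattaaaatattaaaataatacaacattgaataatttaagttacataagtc
Prosbeta4R1, chr2L:2652846-2653045: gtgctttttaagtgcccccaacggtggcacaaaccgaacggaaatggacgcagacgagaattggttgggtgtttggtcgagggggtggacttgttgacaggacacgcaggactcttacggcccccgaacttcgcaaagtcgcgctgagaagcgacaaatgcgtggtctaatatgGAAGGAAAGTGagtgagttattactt

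The Rpn3 stretch held a long tandem repeat, which was noticed once the sequence had been read. An exact unit of 78 bp ran from 19051603 to 19051680 on 2L and again, with no gap, from 19051681 to 19051758, and 68 bases of the first copy are shown. The summit of the pooled region lay 17 bp beyond the second copy. Of 5240 distinct optimal peak intervals, 2, with Rpn3 as 1 of them, held an exact direct repeat at least as long (0.0382%). The median longest repeat was 9 bp. Prosbeta2 and Prosbeta4R1 have no optimal promoter peak and were not scanned. The Rpn5 interval had a longest repeat of 9 bp and the Prosalpha4 interval one of 12 bp.

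A minority of these promoters held a CG7368 peak, and those of paralogs held almost none. In the authors' optimal list of 5246 peaks, which, by the irreproducible discovery rate procedure, keeps the regions that rank reproducibly between replicates, 4 of 48 subunit genes (8.33%) had a summit within 500 bp of a transcription start site (TSS), against 14.9% of all protein-coding genes. They were the lid genes Rpn3 and Rpn5, the base gene Rpn13 and the alpha ring gene Prosalpha4. In the pooled list of 30000 regions, which by its description holds peaks and background from all replicates together, 10 genes (20.8%) had one, against 36.0%. The other 6 were Prosbeta2, Rpn2, Prosalpha3, Rpn9, Prosbeta1 and Prosbeta4R1. Both shares were below those of protein-coding genes as a whole. Of the 32 genes with plain subunit names, 4 (12.5%) had an optimal promoter summit, near the 14.9% of all, and 9 (28.1%) a pooled one. Of the 16 paralogs, 0 had an optimal and 1 a pooled one. The choice of 500 bp left out summits 533 bp from Prosalpha2 in replicate 3 and 566 bp from Prosbeta6 in replicate 1.

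Rpn3 had the highest of these regions. It encodes a scaffold subunit of the lid (FBgn0261396, 2L 19051790 to 19053681, plus strand), and its optimal peak at 19051567 to 19051982 had a signal of 277, rank 1195 of 5246 in the optimal list. The summit lay 15 bp upstream of the TSS. In the replicates the region ranked 1635, 1057 and 1420 of 30000 in replicates 1, 2 and 3, with summits 18 bp upstream, 34 bp downstream and 16 bp upstream. All replicates therefore placed a high region at the start site itself. The TSS of l(2)37Bb, on the opposite strand, was 163 bp from the summit.

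Rpn5, another scaffold subunit of the lid (FBgn0028690, 3R 5789493 to 5791569, plus strand), had an optimal peak at 5789114 to 5789529 with a signal of 257 and rank 1374. Its summit lay 171 bp upstream of the Rpn5 TSS and 62 bp from a TSS of Hat1, a histone acetyltransferase gene on the other strand. Ranks in replicates 1, 2 and 3 were 1055, 1468 and 2794. The highest summit was nearer to Hat1 in each replicate, at 41, 118 and 45 bp from its TSS, so the peak cannot be assigned to either gene. Replicate 2 had a second, lower region there, at rank 16688 and 19 bp upstream of Rpn5.

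The remaining optimal peaks lay near the lower end of the list. Rpn13, a ubiquitin receptor of the base (FBgn0033886, 2R 13958545 to 13960404, minus strand), had a signal of 106 and rank 5100, with the summit 69 bp upstream of a TSS. A second region there, with a summit 339 bp upstream and 68 bp from a TSS of the cathepsin gene CtsL1, had a signal of 100 in the pooled list and rank 5510, just outside the optimal list. In replicates 1, 2 and 3 the higher region at Rpn13 ranked 3204, 5233 and 5767. In replicate 1 that was the region on the CtsL1 side, and in the other replicates the region nearer to Rpn13.

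Prosalpha4, which encodes an alpha ring subunit (FBgn0004066, X 16276270 to 16277587, plus strand), had a signal of 104 and rank 5228 of 5246. Its summit lay 301 bp upstream and 52 bp from a TSS of kat80, a katanin subunit gene on the opposite strand. Ranks were 4045, 5069 and 7466 in replicates 1, 2 and 3. The highest summit lay 340, 232 and 286 bp upstream in these replicates, each inside the stretch printed above. A second pooled region, 85 bp upstream, had a signal of 33.6 and rank 21051, and a window of 250 bp kept that one in place of the first.

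The other 6 promoters held pooled regions below the optimal threshold. Prosbeta2, the subunit with trypsin-like activity, had a signal of 97.0 and rank 5749, and ranked 11025, 4367 and 9591 in replicates 1, 2 and 3. Its summit was 197 bp upstream and 88 bp from the TSS of mRpL39, a mitochondrial ribosomal protein gene. Rpn2, a large scaffold of the base, had a pooled signal of 70.4 at a summit 1 bp downstream of its TSS, with rank 5195 in replicate 3, rank 10971 in replicate 2 at a summit 184 bp upstream, and no promoter region in replicate 1.

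Prosalpha3 had a pooled signal of 63.1 and ranked 23982, 10332 and 12555 in replicates 1, 2 and 3. Its position varied little, at 36, 29 and 30 bp upstream of the TSS. Rpn9, a lid subunit, had a pooled signal of 63 at a summit 221 bp downstream of its nearest TSS. It was in the lists of replicates 1 and 3. Prosbeta1, the subunit with caspase-like activity, had a pooled signal of 36.2 with the TSS of the exosome gene Rrp42 nearer, at 21 bp, and was in the lists of replicates 1 and 3. Prosbeta4R1 was the sole paralog in the pooled list, with a signal of 28.9 and rank 25307 at 21 bp upstream, and no replicate list had a promoter region there. The deposited −log10 q-values of these last regions were low, at 0.371 for Prosbeta1 and 0.19 for Prosbeta4R1, against 3.94 for Rpn3.

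**Figure D1:**
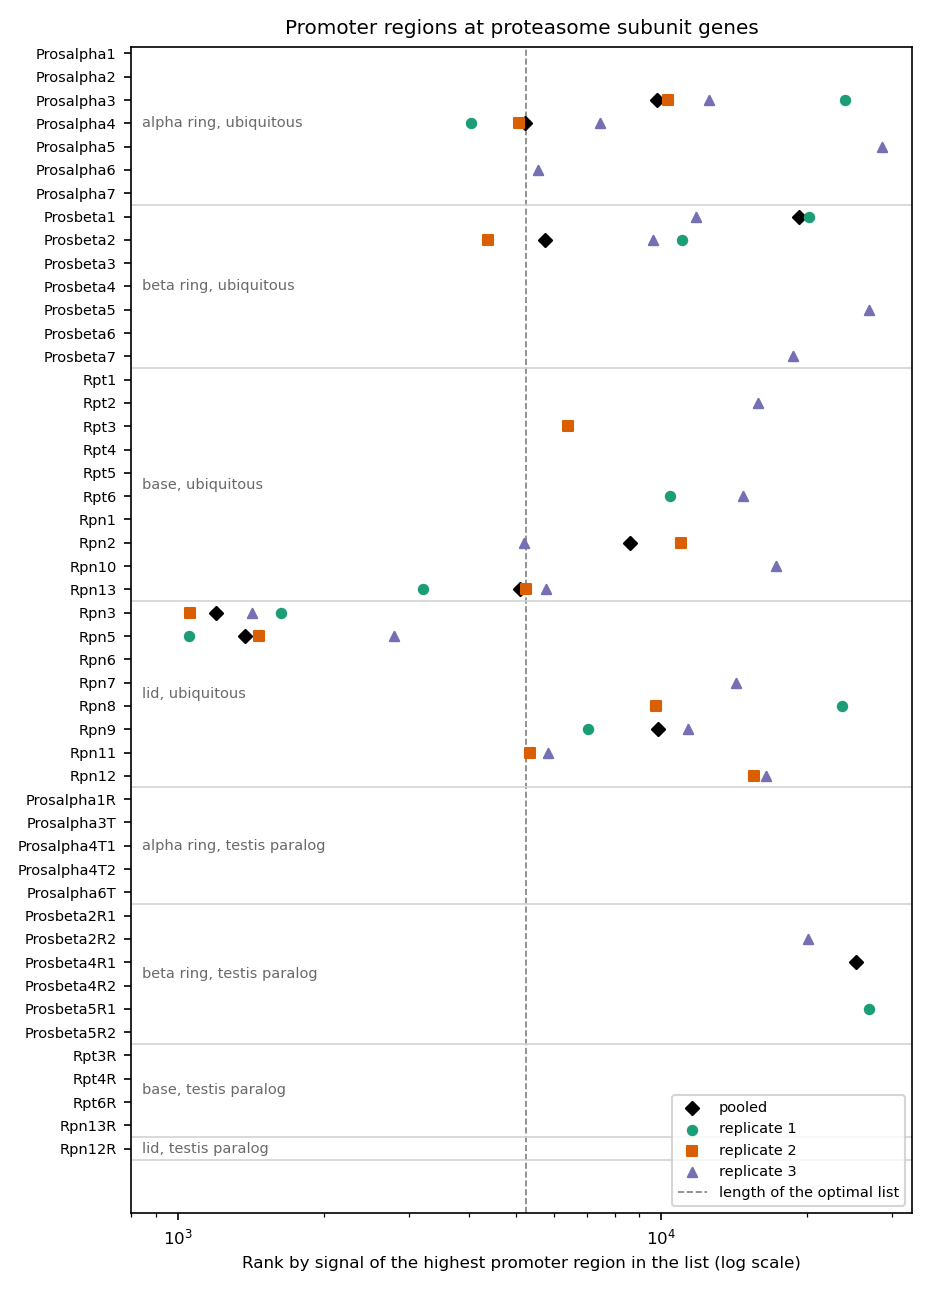
Rank by signal (x axis, log scale, 1 is the highest) of the highest region with a summit within 500 bp of a TSS of each of the 48 subunit genes (y axis, by class) in the pooled list and the 3 replicate lists, with no symbol where a list has none. Rpn3 and Rpn5 lie left of the dashed line, the length of the optimal list (5246), in every list, and 24 genes have no symbol.

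**Figure D2:**
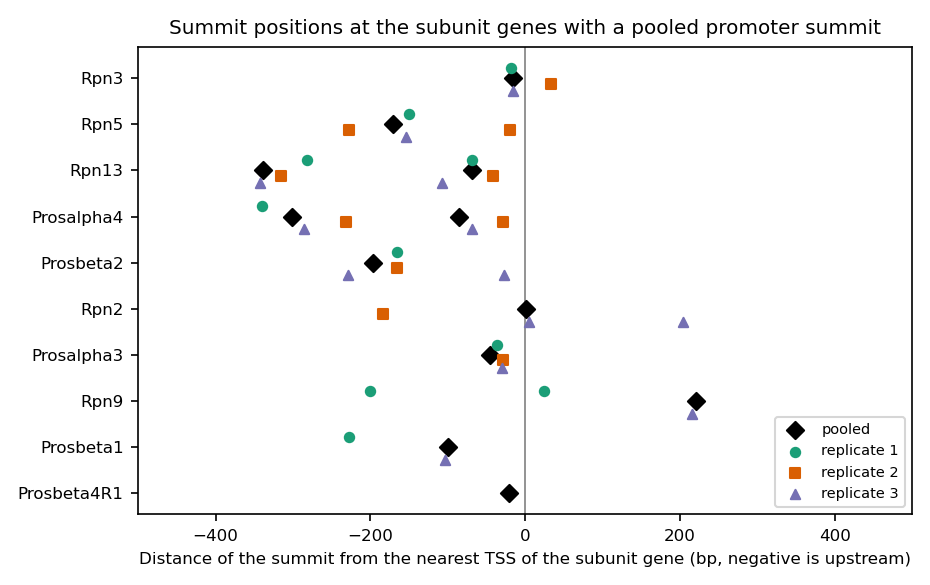
Position of each promoter summit relative to the nearest TSS of the subunit gene (x axis, bp) at the 10 genes with a pooled promoter summit, in order of pooled signal. Points are single summits in the pooled list and the 3 replicate lists. At Prosalpha3 they lie within 45 bp upstream of the TSS, while those of Prosalpha4 form groups near and far upstream.

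Replicates differed in how many subunit promoters they listed. In the full lists of 30000 regions, 11 genes had a promoter summit in replicate 1, 11 in replicate 2 and 20 in replicate 3, or 22.9%, 22.9% and 41.7%. The corresponding shares of all protein-coding genes were 37.9%, 38.6% and 42.4%. The mean was 29.2% ± 10.8 (SD, n = 3) for subunit genes and 39.6% ± 2.46 (SD, n = 3) for all. Replicate 3 alone listed 8 of the 48 genes, Prosalpha5, Prosalpha6, Prosbeta2R2, Prosbeta5, Prosbeta7, Rpn7, Rpn10 and Rpt2, at ranks from 5559 to 28558, against 6.7% of all protein-coding genes. Replicate 1 alone listed Prosbeta5R1 (5.28% of all genes were listed by it alone) and replicate 2 alone Rpt3 (3.64%). Without replicate 3 the mean share of subunit genes was 22.9%.

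Counts were lower and differed less between replicates among the highest regions. Among the 5246 highest regions, 4, 5 and 3 subunit genes had a promoter summit in replicates 1, 2 and 3, or 8.33%, 10.4% and 6.25%, against 15.2%, 15.7% and 16.2% of all genes. Rpn3 and Rpn5 were among them in every replicate, against 10.4% of all genes. Rpn13 and Prosalpha4 were so in replicates 1 and 2, which makes 4 genes without replicate 3. Prosbeta2 was so in replicate 2 alone, at rank 4367, and Rpn2 in replicate 3 alone, at rank 5195. Over the full lists, 6 genes (12.5%) had a promoter summit in all 3 replicates, against 26.5% of all genes. They were the 4 with optimal peaks and Prosalpha3 and Prosbeta2. A further 7 genes were in exactly 2 replicate lists, against 11.9% of all genes, and 10 in exactly 1, against 15.6%.

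Among core, base and lid, the lid had the largest share with any TSS within 500 bp counted, but not in the pooled list with the nearest TSS alone. There the lid had 1 of 8, the base 2 of 10 and the core 1 of 14. Of the 8 plainly named lid genes, 2 had an optimal promoter summit, against 14.9% of all protein-coding genes. A pooled one was at 3 (37.5%), near the 36.0% of all, and 4, 5 and 6 had one in replicates 1, 2 and 3 (62.5% ± 12.5, SD, n = 3), against 39.6% of all on average. Besides Rpn3, Rpn5 and Rpn9, these included Rpn11, the deubiquitinase, with rank 5341 in replicate 2 and 5821 in replicate 3. Rpn12 ranked 15510 and 16449 in those replicates, and Rpn8 23644 in replicate 1 and 9761 in replicate 2. Rpn6 was the lid gene with no promoter summit in any list.

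The base had 1 optimal and 2 pooled genes of 10, against 14.9% and 36.0% of all genes, and 33.3% ± 15.3 (SD, n = 3) in the replicate lists, within its spread of the 39.6% of all. Its 6 ATPase genes had none in the optimal or pooled list. Rpt6 had a summit in replicates 1 and 3, at ranks 10400 and 14781 and at 38 and 36 bp downstream of the TSS. Rpt2 and Rpt3 were listed in 1 replicate each, while Rpt1, Rpt4 and Rpt5, and also the large subunit gene Rpn1, had a summit in no list. Rpn10, the other ubiquitin receptor, was listed in replicate 3 at rank 17223.

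The core had 1 optimal and 4 pooled genes of 14, against 14.9% and 36.0%. In replicates 1, 2 and 3 its share was 28.6%, 21.4% and 57.1% (35.7% ± 18.9, SD, n = 3), against 37.9%, 38.6% and 42.4%. Like the base, the core was below all genes in replicates 1 and 2 and above them in replicate 3. Prosalpha6 had rank 5559 in replicate 3 and no promoter region in the other lists, and its summit was 40 bp from a TSS of Npc1a. Prosbeta5, the subunit with chymotrypsin-like activity, was listed in replicate 3 at rank 26945. Prosalpha1, Prosalpha2, Prosalpha7, Prosbeta3, Prosbeta4 and Prosbeta6 had no promoter summit in any list.

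In the full replicate lists the lid exceeded the base by 29.2 points ± 3.82 (SD, n = 3). It exceeded the core by 26.8 points ± 12.5 (SD, n = 3), and both held in 3 of 3 replicates. An exact two-sided sign-flip permutation test over replicates gave p = 0.25 for both, the smallest that 3 replicates allow. Of 5 such differences computed, all had p = 0.25 and an adjusted p of 0.25 by this exact test. Replicates share the same genes, and 1 lid gene is 12.5% of its class, so the classes are described rather than separated.

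**Figure D3:**
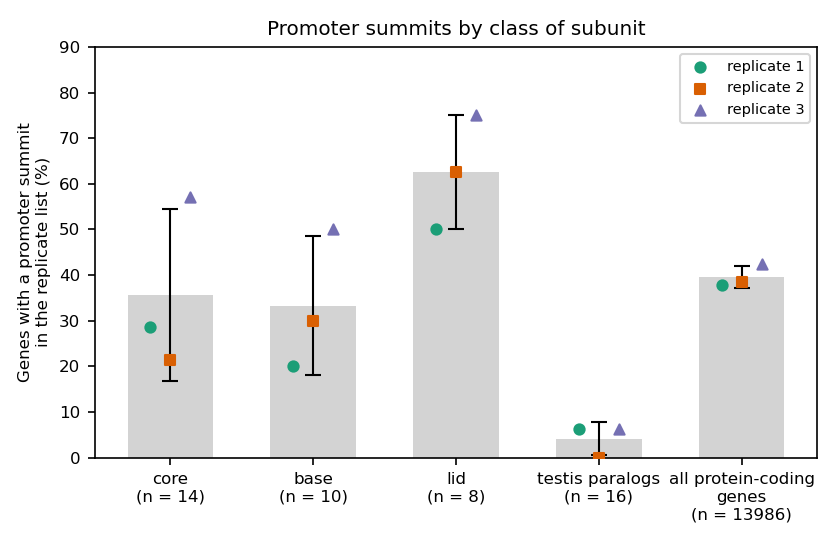
Percentage of genes with a summit within 500 bp of a TSS (y axis) in the full list of each replicate, for plainly named core, base and lid genes, for paralogs and for all protein-coding genes. Bars are means and error bars SD over 3 replicates. Lid genes lie at 62.5% on average and paralogs at 4.17%.

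Paralogs had almost no regions. Of 16, none had an optimal promoter summit, 1 had a pooled one, and 1, 0 and 1 were listed in replicates 1, 2 and 3. These were Prosbeta5R1 in replicate 1, at rank 26872, and Prosbeta2R2 in replicate 3, at rank 20139 with a TSS of CG1116 nearer to the summit. No replicate listed the other 14 (87.5%), against 46.0% of all protein-coding genes and 11 of 32 plainly named subunit genes (34.4%). Across all 5 lists, 24 of the 48 genes had no promoter summit, against 45.7% of all protein-coding genes. They were the 11 plainly named genes given above and 13 paralogs, Prosalpha1R, Prosalpha3T, Prosalpha4T1, Prosalpha4T2, Prosalpha6T, Prosbeta2R1, Prosbeta4R2, Prosbeta5R2, Rpt3R, Rpt4R, Rpt6R, Rpn12R and Rpn13R.

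Plainly named genes had a summit in 41.7% ± 15.4 (SD, n = 3) of cases in the replicate lists and paralogs in 4.17% ± 3.61 (SD, n = 3). The difference was 25, 34.4 and 53.1 points in replicates 1, 2 and 3, with a mean of 37.5 ± 14.3 (SD, n = 3), and the same exact sign-flip test gave p = 0.25. Among the highest regions alone it was 12.5 points. Plainly named genes were below all protein-coding genes in replicates 1 and 2, at 31.2% against 37.9% and 34.4% against 38.6%, and above them in replicate 3, at 59.4% against 42.4%. In the optimal list they were at 12.5% (4 of 32), near the 14.9% of all genes, and in the pooled list at 28.1% against 36.0%. Paralogs were below all genes in each of the 5 lists. In whole animals, binding in a few cells and weak binding in many cannot be told apart.

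By distance to the nearest optimal peak, plainly named genes were again ahead of paralogs. Their median was also slightly below that of all protein-coding genes. The nearest optimal summit was at a median of 7.04 kb from a TSS of plainly named genes, from 0.015 kb at Rpn3 to 23.7 kb at Rpt4. For paralogs the median was 20.2 kb, from 3.41 kb at Prosbeta2R2 to 81.4 kb at Prosbeta4R1, and for all protein-coding genes it was 8.96 kb. An optimal summit lay within 2 kb of 6 plainly named genes and of no paralog, against 23.0% of all protein-coding genes. Besides the 4 with promoter peaks these were Prosbeta6 at 1.14 kb and Rpn12 at 1.65 kb. Within 10 kb there were 19 of 32 plainly named genes and 3 of 16 paralogs, against 52.8%. No optimal summit lay inside the body of any of the 48 genes. The share of all protein-coding genes without one was not computed, so this count has no background to be read against. The neighbouring paralogs Prosbeta4R1 and Prosbeta4R2 share their surroundings, as do Prosalpha1 and Prosalpha1R, and are not independent.

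**Figure D4:**
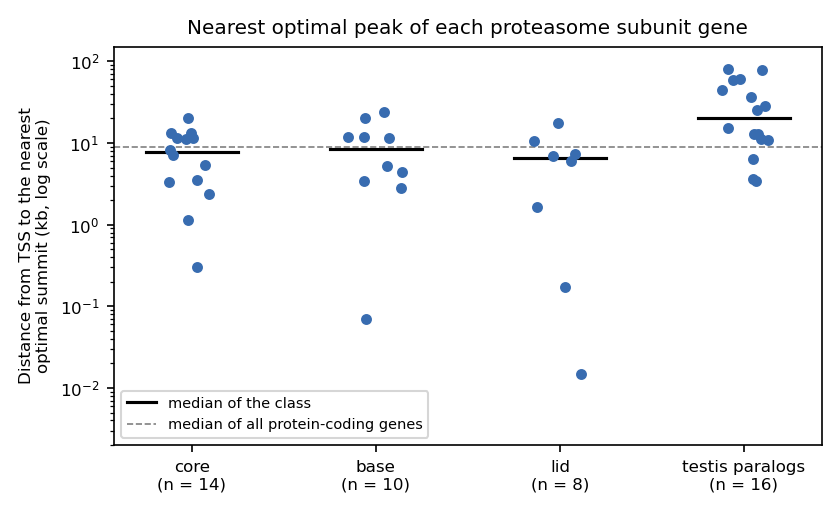
Distance (y axis, kb, log scale) from the TSS of each subunit gene to the nearest optimal summit, by class, with black lines at class medians and a dashed line at the median of all protein-coding genes (8.96 kb). Paralogs lie between 3.41 and 81.4 kb.

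Most of the subunit promoters with an optimal or pooled summit were shared with a neighbour on the other strand. Another gene had a TSS within 500 bp of the TSS of 24 of the 48 genes, against 34.4% of all protein-coding genes, and all 24 had such a neighbour head to head, against 29.6%. These were 21 of 32 plainly named genes and 3 of 16 paralogs. All 4 genes with an optimal promoter summit were among these 24, against 53.7% of all protein-coding genes with one, and 8 of the 10 with a pooled promoter summit, against 41.5%. Among the 24 with such a neighbour, 4 had an optimal promoter summit, against 23.2% of protein-coding genes with a neighbouring TSS, and none of the other 24 had one, against 10.5%. Among the 24 with such a neighbour, 33.3% had a pooled promoter summit, against 43.4% of protein-coding genes with a neighbouring TSS. Among the 24 without, 2 (8.33%) had one, against 32.2%.

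The same summit often lay near another gene. It was within 500 bp of the TSS of another gene at all 4 genes with an optimal promoter summit, against 50.3% of protein-coding genes that had one, and at 9 of 10 with a pooled promoter summit, against 42.3%. The TSS of the subunit gene was the nearest one for 2 of the 4, Rpn3 and Rpn13, against 79.4% of protein-coding genes with an optimal promoter summit, and for 5 of the 10, against 86.5% with a pooled one. The other 3 of these were Prosalpha3, Rpn2 and Prosbeta4R1. With peaks credited to the nearest TSS alone, 1 core gene and 1 lid gene had a pooled summit in place of 4 and 3, while the base kept its count of 2.

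Promoters were then searched for short motifs on both strands, from 250 bp before to 50 bp after the most upstream TSS. The word TATCGATA, bound by DREF in promoters of housekeeping genes, was in 12 of 48, against 9.36% of all protein-coding promoters. All 12 were among the 32 plainly named genes (37.5%), in 6 of 14 core, 2 of 10 base and 4 of 8 lid genes. It was in 6 of the 10 promoters with a pooled summit, Prosalpha3, Prosbeta1, Prosbeta2, Rpn3, Rpn9 and Rpn13, and in 6 of the other 38. None of the 16 paralogs held the word and 1 of them had a pooled summit, so paralogs lower the share among the 38. Shares of the word among all protein-coding promoters with and without a pooled summit were not computed, so no link is drawn. Such matches describe the sequence and were not tested as binding sites.

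For the 8 of these 12 genes on 2L, 3L and 3R the site is given with 10 bases on either side, on the strand of the gene, with the word in capitals, to show how their surroundings differ.
Prosalpha6, chr2L:10221325-10221352, plus strand: ccgaatccctTATCGATAcccgatacac
Prosbeta2, chr3L:14999931-14999958, plus strand: catgaatataTATCGATAcaatatcgat
Prosbeta6, chr3L:16610445-16610472, minus strand: tatgtataccTATCGATAacgtttaagc
Rpt5, chr3R:23752820-23752847, plus strand: tcgctgtcacTATCGATAagcgccggcg
Rpn3, chr2L:19051583-19051610, plus strand: gttatcggagTATCGATAtcgaaaaggc
Rpn7, chr3R:22462034-22462061, minus strand: cggtataattTATCGATAattttggggt
Rpn9, chr3R:23733419-23733446, minus strand: cccggttaaaTATCGATAttctcgcgga
Rpn12, chr3L:16582802-16582829, plus strand: tgttaaaataTATCGATAttaaagcaca

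Distance from these words to the nearest pooled summit varied. The centre of the word lay 18 bp away at Prosbeta1 and 46 bp at Prosalpha3, the closest of the 12. It lay 125 bp away at Rpn13, 178 bp at Rpn3, 191 bp at Prosbeta2 and 192 bp at Rpn9. Outside the window searched, a further word lay 59 bp from the summit at Prosbeta2, inside the stretch printed above, and one lay 95 bp from it at Rpn3. At the 6 genes without a pooled promoter summit the nearest pooled summit was 1181 (Prosbeta6) to 20283 bp (Prosalpha6) away.

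Other words were searched in the same way. TGACNNNGC, the core of the element bound by Cnc and Maf-S, regulators known to activate proteasome genes in flies, was in 6 of 48 promoters (12.5%), against 8.63% of all. These were Prosalpha2, Prosbeta3, Prosbeta4R2, Rpn1, Rpn7 and Rpt6, and none of the 10 with a pooled summit. GGTCACAC, the core of a common Drosophila promoter motif, was in 5 (10.4%), Prosalpha2, Prosalpha4, Prosbeta3, Rpn1 and Rpn7, against 7.7%. The TATA box word TATAAA was in 18 (37.5%), against 45.8%. Within 25 bp of the summit A and T made up 60.8% (Rpn5), 66.7% (Prosalpha4), 72.5% (Rpn3) and 74.5% (Rpn13) of bases, and the median over all optimal promoter summits was 64.7%.

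Genes that work with the proteasome were described from a separate list of 23. Of these, 6 (26.1%) had an optimal promoter summit, against 14.9% of all protein-coding genes, and 12 (52.2%) a pooled one, against 36.0%. The highest was at cnc, which encodes the Nrf-type activator of proteasome genes, with a signal of 373 and rank 670 in the optimal list. It ranked 614, 826 and 630 in replicates 1, 2 and 3, higher than the regions at any subunit gene in each replicate, and its summit lay 329 bp from a TSS with no other gene within 500 bp. Pomp, the proteasome maturation factor gene, had a signal of 257 with ranks 1958, 1871 and 913, and its own TSS was the only one nearby, at 202 bp. The polyubiquitin gene Ubi-p63E (131), ntc (118), which encodes an F-box protein of sperm differentiation, Npl4 (112), a cofactor of the segregase TER94, and Ubqn (104), a ubiquitin shuttle gene, had lower signals.

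The ntc summit, 106 bp from its TSS, also lay within 500 bp of a TSS of CG32264 and of IntS10, with that of ntc nearest. At Ubqn a TSS of dome was nearer to the summit, and the Ubqn rank of 5245 was next to last in the optimal list. Keap1, Ubr3, Ubi-p5E, park, REG and Uba1 had a pooled summit that was not optimal. TER94, rngo, Usp14 and p47 had no promoter region in any replicate. With a window of 250 bp, 3 of the 23 genes had an optimal promoter summit, against 11.4% of all genes, and cnc was not among them.

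Cytosolic ribosomal protein genes, another set of housekeeping genes taken by symbol, differed from the proteasome in these lists. Of 88, 79.5%, 78.4% and 79.5% had a promoter summit in replicates 1, 2 and 3 (79.2% ± 0.656, SD, n = 3). The shares of all protein-coding genes were 37.9%, 38.6% and 42.4%. Plainly named proteasome genes were lower by 48.3, 44.0 and 20.2 points, with p = 0.25 by the exact sign-flip test. The sets were made unlike, since paralogs were left out of the proteasome side while every matching ribosomal symbol was kept.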

How the data were processed

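Chromatin immunoprecipitation and sequencing of whole prepupae gave 3 replicate lists, a pooled list and an optimal list of regions, in dm6 coordinates. Chromatin was sheared by sonication to 200 to 800 bp, per the labels. The signal of each region was deposited by the authors, and its formula, the peak caller, the aligner and the read depth are unknown here. Signals are the authors' own values and were used to describe and rank regions within 1 list. The −log10 q-value of each region, also deposited by the authors, took no part in any call. Optimal peaks were derived from the replicate and pooled lists by the irreproducible discovery rate procedure, per the deposited file description. Lists in dm3 coordinates are not used here.

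Genes and TSSs came from Ensembl release 115, without transposable elements (18358 genes). All regions lay inside the dm6 chromosomes, and all 48 genes had the same span in RefSeq. A gene was called when a summit lay within 500 bp of any of its TSSs. The highest regions are the 5246 of highest signal in a replicate. The assignment of summits was tested on simulated positions with known answers. Classes were set by symbol, with Rpt genes, Rpn1, Rpn2, Rpn10 and Rpn13 as base. Named genes are all with a promoter summit and, by class, all without. The genes and lists were chosen with earlier results of these data known, so shares stand beside those of all protein-coding genes and are not tested over genes. Python 3.11.15, numpy 2.4.6, pandas 2.3.3 and scipy 1.17.1 were used.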

Additional observations from a re-analysis of the deposited data

How the results depend on the processing

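Windows of 250 and 1000 bp, overlap of the interval and the most upstream TSS alone left the count of subunit genes with an optimal promoter summit at 3 or 4, and the pooled count at 10 wherever these were tried. Crediting each summit to the nearest TSS alone gave 2 optimal and 5 pooled genes, with 1 core, 1 lid and 2 base genes in the pooled list, so that the lid no longer had the largest share. In the upper part of the optimal list by signal, cut at its middle, 2 subunit genes and 2 partner genes had a promoter summit, and with the 250 bp window 3 partner genes had one. The mean share in the replicate lists was 8.33% when the highest regions alone were used, and 22.9 to 32.3% leaving out each replicate in turn. Genes among the highest regions of every replicate numbered 2 to 4 when a replicate was left out, and 4 when the number of highest regions was doubled. The cause of these changes was not tested. The upper part of the optimal list, the highest regions and the sets without a replicate hold fewer regions or replicates. Crediting summits to the nearest TSS kept all regions and replicates, and the doubled number of highest regions holds more. The plainly named minus paralog difference was 29.7 to 43.8 points without 1 replicate, and 12.5 to 34.4 points in the other alternatives. No comparison of sample groups, paired or not, was possible because the series has 1 group. The sign-flip tests paired gene classes within each replicate. Read depth is unknown, so no limit could be set for promoters without a region.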
